A study of Arabidopsis thaliana with 14 samples.

Results

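The distal intergenic regions described here are the stretches of the Arabidopsis genome, among those deposited as candidate binding regions of the transcription factor FLM, that touch no gene and lie 2000 bp or more from the nearest gene on either side. They were taken from the 3 deposited tables by the gene and distance columns alone, on chromosomes 1 to 5, without use of any read count. They number 1082 of 19879 regions in the gFLM table, 1022 of 13791 in the iFLMbeta table and 877 of 10006 in the iFLMdelta table, or 2981 of 43676 in all. Chromatin immunoprecipitation with sequencing (ChIP-seq) was done on Columbia-0 seedlings with an antibody against GFP. For gFLM there were 3 GFP and 3 control libraries, made from plants kept for 15 days at 16 °C. For each of the splice variants, iFLMbeta and iFLMdelta, there were 2 GFP and 2 control libraries, made from plants kept for 10 days at 23 °C. All plants were grown in long days and collected at zeitgeber time 8 h, and in every control group the FLM protein carried no tag. The meaning of the prefixes g and i, the promoters of the constructs and the number of transgenic lines are not stated in the labels, and the antibody label is missing for 1 gFLM GFP library. A difference between gFLM and a splice variant therefore cannot be told apart from a difference in age and temperature.

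FLM is a MADS-box protein that represses flowering, together with its relative SVP, in a manner that depends on temperature. Its transcript is spliced into alternative forms, of which FLM-beta and FLM-delta are the best known. MADS-box proteins bind DNA as dimers or larger complexes at short AT-rich elements called CArG boxes. Genes stand close together in Arabidopsis, most known regulatory elements lie near a gene start, and a few act from farther away, such as the distal Block C enhancer of the flowering gene FT. Whole seedlings were used, so each library mixes the chromatin of all seedling tissues.

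Read counts and deposited q-values give 2 readings of each region. A region is said to pass where all of the authors' q-values, 1 per replicate, were at most 0.05. The log2 ratio is that of GFP reads to control reads in a replicate, after 1 read was added to each and each was divided by its library's total over the deposited regions. Those totals ran from 74499 to 435306 reads in gFLM GFP libraries, against 17161 to 195081 in gFLM controls, and replicate 2 was lowest of both kinds. They were 181951 and 194811 reads in iFLMbeta GFP libraries, against 52819 and 108460 in iFLMbeta controls. In iFLMdelta they were 101937 and 211113 reads in GFP libraries, against 71083 and 85063 in controls. These totals are not sequencing depths, and because the regions were chosen by the authors for GFP reads, dividing by them can lower the ratios. Where GFP counts are said below to lie above control counts, the counts were not divided by these totals.

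Enrichment at distal regions was rare and was found mostly in gFLM and iFLMbeta. In gFLM 17 of 1082 distal regions passed (1.57%), where 0.8% of all gFLM regions passed. In iFLMbeta 25 of 1022 passed (2.45%), where 1.46% of all iFLMbeta regions passed. In iFLMdelta 3 of 877 passed (0.342%), where 0.41% of all iFLMdelta regions passed. The 45 passing regions fall between 28 pairs of neighbouring genes, and they include regions upstream of the flowering repressors AP2, SMZ, TEM2 and TOE1 and of the carpel gene SPT. The gFLM count was 32 when replicate 2 did not have to pass, a count given without its share over all regions. With 1 of 2 replicates left out the counts were 53 and 99 in iFLMbeta and 34 and 104 in iFLMdelta, where a single q-value then decides. At least 1 q-value was 0.05 or less at 127 of 1022 iFLMbeta distal regions and 2226 of all 13791. In iFLMdelta it was so at 135 of 877 and at 2029 of all 10006.

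**Figure D1:**
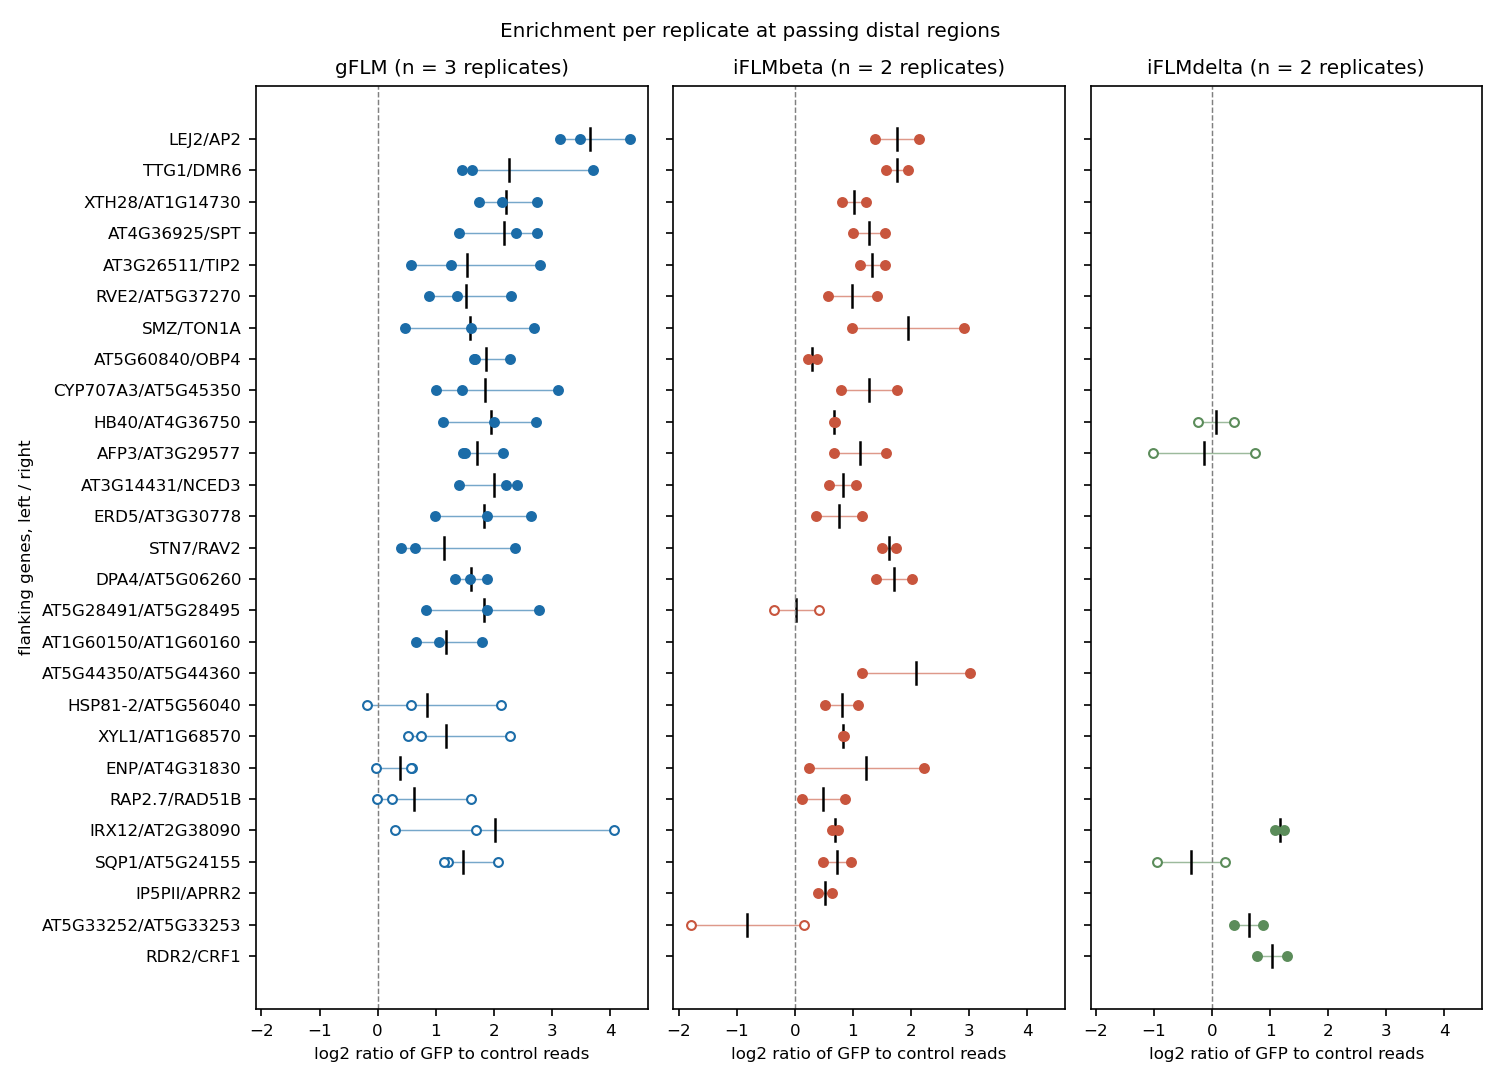
Log2 ratio of GFP to control reads (x axis) at gene pairs with a passing distal region (rows, left gene / right gene), in gFLM, iFLMbeta and iFLMdelta. Points are replicates, vertical ticks their mean, filled points a region that passed in that construct, and open points an overlapping deposited region that did not pass. An empty row means that no deposited region of that construct overlapped, and the second iFLMbeta region of the AT4G36925/SPT pair and 1 further iFLMbeta region are not drawn. The gFLM point farthest to the right is replicate 2 at LEJ2/AP2, at 4.34, and the gFLM and iFLMbeta panels are filled for the same pairs from LEJ2/AP2 down to DPA4/AT5G06260.

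The strongest distal region lies between LEJ2 and AP2. AP2 encodes a transcription factor of floral organ identity that also represses flowering, and LEJ2 encodes a chloroplast protein with CBS domains. In gFLM the region (chromosome 4, 17395663 to 17395985, build TAIR10) lies 2484 bp upstream of the LEJ2 start and 4786 bp upstream of the AP2 start. It held 429, 87 and 118 reads in the gFLM GFP libraries, against 15, 0 and 16 in the gFLM controls. Every GFP library was far above every control library, and the mean log2 ratio was 3.65 ± 0.62 (SD, n = 3). It ranked 10th of all gFLM regions in the authors' order. By edgeR's quasi-likelihood test, adjusted over all tested gFLM regions, its log2 fold change was 3.79 ± 0.58 (SE) with an adjusted p of 4.66e-06, and it was 2.97e-09 with the replicate number as a block. The call ended without the GFP library of replicate 2 (edgeR adjusted p = 0.353) and without the filter on low counts (0.801).

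The LEJ2/AP2 region was enriched in iFLMbeta as well. The iFLMbeta region (chromosome 4, 17395678 to 17395973) lies within the gFLM one and ranked 14th of its table. It held 107 and 150 reads in GFP libraries, against 22 and 9 in controls, so that the groups did not overlap. The mean log2 ratio was 1.76 ± 0.53 (SD, n = 2), with an adjusted p of 0.0101 by edgeR. That call ended without the second GFP library (edgeR adjusted p = 1.00) and without control library 1 (0.781) or 2 (1.00). No deposited iFLMdelta region overlapped it. A further deposited region of the same pair, nearer to AP2 (chromosome 4, 17397517 to 17398032, 2835 bp upstream), did not pass in gFLM, at a log2 ratio of 0.76 ± 0.65 (SD, n = 3). Its iFLMbeta counterpart, 2665 bp upstream of AP2, stood at -0.27 ± 0.81 (SD, n = 2). The RefSeq table of assembly TAIR10.1 lists 3 noncoding RNA genes between LEJ2 and AP2. The region is distal to the genes in the deposited annotation, and its distance from those 3 was not measured.

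Farther along the same chromosome, on the other side of AP2, another region passed upstream of SPT, a bHLH gene of carpel development and seed germination. The gFLM region (chromosome 4, 17409178 to 17409472) starts 13192 bp after the LEJ2/AP2 region ends. It lies 4802 bp upstream of SPT and 4874 bp past the end of AT4G36925, which made it 1 of the passing regions farthest from any gene. It held 162, 28 and 43 reads in GFP libraries, against 12, 0 and 20 in controls, at a log2 ratio of 2.17 ± 0.70 (SD, n = 3). The iFLMbeta region there held 71 and 80 reads, against 19 and 7 in controls, at 1.28 ± 0.39 (SD, n = 2). GFP libraries were above controls throughout in both constructs. A second iFLMbeta region, separated from the first by 190 bp (chromosome 4, 17408868 to 17409021), passed too, with 30 and 25 GFP reads against 8 and 3 control reads and a log2 ratio of 0.93 ± 0.02 (SD, n = 2). The SD was 0.20 when the control columns were crossed. The gFLM region that overlaps this second one had 57, 9 and 13 GFP reads against 5, 5 and 7 control reads and did not pass (q = 0.644 in replicate 2).

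Other known repressors of flowering were flanked by passing distal regions too. SMZ encodes an AP2-like repressor, and its region (chromosome 3, 20378947 to 20379290) lies between the starts of SMZ and TON1A, a gene of microtubule organisation. In gFLM it held 171, 29 and 40 GFP reads, against 10, 4 and 16 control reads, and the log2 ratios were 2.70, 0.47 and 1.60. In iFLMbeta it held 24 and 51 GFP reads, against 6 and 1 control reads, with log2 ratios of 0.99 and 2.92. All GFP counts were above all control counts in either construct, but the ratios varied widely between replicates, with SDs of 1.12 in gFLM and 1.36 in iFLMbeta.

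TEM2, named RAV2 in the tables, encodes a repressor of FT. Its region (chromosome 1, 25877502 to 25877835) lies between TEM2 and STN7, the kinase of photosynthetic state transitions. It held 86, 22 and 25 GFP reads in gFLM, against 6, 3 and 20 control reads. It held 35 and 38 GFP reads in iFLMbeta, against 5 and 3 control reads. The gFLM ratio was high in replicate 1 only (2.37, against 0.41 and 0.64 in replicates 2 and 3), and the iFLMbeta mean was 1.62 ± 0.17 (SD, n = 2), with an SD of 0.47 when the control columns were crossed. TOE1, named RAP2.7 in the tables, is another AP2-like repressor, and its region (chromosome 2, 12234278 to 12234648) is 5919 bp upstream of it and 2152 bp past the end of RAD51B. It passed in iFLMbeta with 36 and 49 GFP reads, against 18 and 7 control reads, at 0.49 ± 0.53 (SD, n = 2). In gFLM the overlapping region had 117, 12 and 17 GFP reads, against 15, 2 and 18 control reads, and did not pass (q = 0.237 and 0.126 in replicates 2 and 3).

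Over the list of flowering-time genes, 46 of 47 entries were matched to a gene of the tables. Of these, 5 flanked a distal region in gFLM and 3 flanked a passing one (AP2, SMZ and TEM2). In iFLMbeta 7 flanked a distal region and 4 a passing one (AP2, SMZ, TEM2 and TOE1), and in iFLMdelta 3 flanked a distal region and 0 a passing one. By comparison, 34 of the 1613 genes that flank a gFLM distal region, 48 of 1549 in iFLMbeta and 6 of 1332 in iFLMdelta flanked a passing one. The gene lists were chosen with earlier results of these data known, so these counts are descriptions only. The listed flowering-time genes without a passing region had log2 ratios between -0.63 and 0.62. FUL, a MADS-box gene of flowering and fruit, stood at 0.29 ± 0.74 (SD, n = 3) in gFLM. FT itself, the mobile signal of flowering, had an iFLMbeta region 5217 bp upstream of its start at -0.63 ± 1.64 (SD, n = 2). TEM1, the close relative of TEM2, stood at -0.13 ± 0.36 (SD, n = 2) in iFLMbeta and -0.23 ± 0.85 (SD, n = 2) in iFLMdelta.

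Of the floral organ genes, AP2 and SPT were the 2 that flanked a distal region, in gFLM and in iFLMbeta. Each had at least 1 region that passed, while the region of AP2 nearer to its start in either table and the second SPT region in gFLM did not. Among clock genes RVE2, which encodes a MYB factor of the clock family, flanked a passing region in gFLM and iFLMbeta, 2599 bp upstream of its start (chromosome 5, 14755470 to 14755906). It held 177, 31 and 42 GFP reads in gFLM, against 14, 3 and 20 control reads, at 1.52 ± 0.72 (SD, n = 3). It held 61 and 81 GFP reads in iFLMbeta, against 12 and 15 control reads, at 0.99 ± 0.59 (SD, n = 2), with an SD of 1.30 when the control columns were crossed. GFP counts were above control counts in each pair of libraries. PRR5 and ZTL flanked iFLMbeta distal regions that did not pass, at -0.27 ± 0.73 and -0.68 ± 1.27 (SD, n = 2). Of the 22 light and temperature genes, 2 flanked a distal region in gFLM, 1 in iFLMbeta and 2 in iFLMdelta, and 0 flanked a passing one. CRY1, which encodes a blue-light receptor, flanked a distal region in each table, at 0.62 ± 0.39 (SD, n = 3) in gFLM, -0.78 and -0.16 in 2 iFLMbeta regions and 0.28 ± 0.09 (SD, n = 2) in iFLMdelta. PHYC stood at -0.68 and -0.67 in gFLM, and PIF3 at -0.38 ± 0.93 (SD, n = 2) in iFLMdelta.

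Most other passing regions flanked genes outside the lists. The passing gFLM region with the next highest mean log2 ratio lies between TTG1, which encodes a WD40 protein of trichome and anthocyanin formation, and DMR6, which encodes an enzyme of salicylic acid breakdown (chromosome 5, 8376481 to 8376851). It held 187, 39 and 36 GFP reads, against 5, 2 and 16 control reads, with log2 ratios of 3.70, 1.62 and 1.45. Replicate 1 stood well above the other two, and the mean was 2.26 ± 1.25 (SD, n = 3). By edgeR the adjusted p was 0.0555, and with the replicate block it was 6.66e-04. In gFLM it passed the edgeR threshold when the control library of replicate 1 or 2 was left out (adjusted p = 0.0399 and 0.0468). In iFLMbeta the region held 96 and 101 GFP reads, against 13 and 9 control reads, at 1.76 ± 0.27 (SD, n = 2). It was called by edgeR (adjusted p = 0.0297), and the call ended without any 1 of the 4 libraries (0.157 to 1.00) and with scaling by total reads (0.0547).

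XTH28 encodes an enzyme that remodels cell-wall xyloglucan. Its region (chromosome 1, 5070612 to 5070967), 2144 bp upstream, held 160, 28 and 48 GFP reads in gFLM, against 9, 1 and 13 control reads, at 2.21 ± 0.50 (SD, n = 3). It held 68 and 80 GFP reads in iFLMbeta, against 21 and 9 control reads, at 1.02 ± 0.30 (SD, n = 2). GFP libraries were above all controls in both constructs. In gFLM the edgeR adjusted p was 0.0521, and it was 5.20e-04 with the replicate block.

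TIP2 is the name the tables give to a gene of a vacuolar-membrane aquaporin. The region (chromosome 3, 9717920 to 9718270) is 4348 bp past its end and 4908 bp upstream of AT3G26511. It held 199, 38 and 37 GFP reads in gFLM, against 11, 5 and 19 control reads. In iFLMbeta it held 109 and 111 GFP reads, against 20 and 14 control reads. Unscaled GFP counts were above all control counts in both constructs. After division by library totals this did not hold in gFLM. GFP replicate 3 held 37 of 155359 reads, a lower share than the 5 of 17161 in control replicate 2. The mean log2 ratio was 1.54 ± 1.13 (SD, n = 3) for gFLM, with replicate 2 lowest at 0.58, and 1.33 ± 0.30 (SD, n = 2) for iFLMbeta.

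CYP707A3 encodes an enzyme that breaks down the hormone abscisic acid, and the region (chromosome 5, 18378854 to 18379178) is 8024 bp upstream of its start, the longest such distance among passing gFLM regions, but 2821 bp past the end of AT5G45350. It held 144, 25 and 36 GFP reads in gFLM, against 6, 2 and 16 control reads, at 1.85 ± 1.11 (SD, n = 3). NCED3 encodes the drought-induced enzyme of abscisic acid synthesis, and the region lies past the end of it (2049 bp) and of AT3G14431 (chromosome 3, 4829105 to 4829373). It held 66, 22 and 37 GFP reads, against 5, 0 and 17 control reads, at 2.01 ± 0.53 (SD, n = 3). It was the 1 passing gFLM region with no gene start facing it. AFP3 encodes a protein that binds the factor ABI5, and the region (chromosome 3, 11386905 to 11387299) is 3097 bp upstream. It held 149, 23 and 33 GFP reads, against 13, 1 and 14 control reads, at 1.71 ± 0.39 (SD, n = 3). GFP counts were above all control counts at each of these regions in gFLM. In iFLMbeta all passed, at 1.28 ± 0.67 for CYP707A3, 0.82 ± 0.33 for NCED3 and 1.12 ± 0.63 for AFP3 (SD, n = 2).

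The remaining regions that passed in gFLM and iFLMbeta flank 2 transcription factor genes, a proline-catabolism gene and a leaf-shape gene. At HB40, a homeodomain gene (chromosome 4, 17319744 to 17320083), gFLM had 142, 34 and 25 GFP reads, against 8, 1 and 14 control reads. At OBP4, a gene of the DOF family (chromosome 5, 24476798 to 24477238), gFLM had 146, 20 and 49 GFP reads, against 18, 0 and 19 control reads. In gFLM the ratios were 1.95 ± 0.80 at HB40 and 1.87 ± 0.35 at OBP4 (SD, n = 3), against lower iFLMbeta ratios of 0.68 ± 0.02 and 0.30 ± 0.12 (SD, n = 2). With the control columns crossed these iFLMbeta SDs became 0.76 and 0.44. At ERD5, which encodes proline dehydrogenase (chromosome 3, 12453727 to 12454114), gFLM had 59, 15 and 32 GFP reads, against 3, 0 and 20 control reads. At DPA4, a gene that limits leaf serration (chromosome 5, 1899026 to 1899260), gFLM had 64, 15 and 15 GFP reads, against 8, 0 and 7 control reads. GFP was above control within each replicate at all 4. At DPA4 the iFLMbeta ratio was as high as in gFLM, at 1.60 ± 0.28 in gFLM (SD, n = 3) and 1.71 ± 0.44 in iFLMbeta (SD, n = 2). ERD5 stood at 1.83 ± 0.83 in gFLM (SD, n = 3) and 0.76 ± 0.56 in iFLMbeta (SD, n = 2). The crossed iFLMbeta SDs were 1.32 at DPA4 and 1.22 at ERD5.

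By edgeR, 1 of 237 tested gFLM distal regions was called (LEJ2/AP2), where 0.709% of all 5216 tested gFLM regions were called. The count was 0 without the GFP library of replicate 2, and it was 3 when the replicate 1 control was left out and 2 when the replicate 2 control was. All 17 passing regions were among the 237. Replicate numbers were taken to pair the gFLM libraries. With the number as a block 18 of the 237 were called, where 2.63% of all tested regions were. The 18 include 15 of the 17 passing regions, all but STN7/RAV2 (edgeR adjusted p = 0.139) and AT1G60150/AT1G60160 (0.294). The other 3 missed q of 0.05 in replicate 2, and they flank IRX12, MYB114/MYB90 and SQP1. MYB114 and MYB90 encode activators of anthocyanin synthesis, and the region between them (chromosome 1, 24760581 to 24760888) held 113, 12 and 36 GFP reads, against 8, 0 and 12 control reads, at 1.94 ± 0.42 (SD, n = 3) and a q of 0.0501 in replicate 2. In iFLMbeta edgeR called 2 of 341 tested distal regions, where 0.341% of all 7337 were called, and 0 with the column number as a block, where 0.191% of all were. DESeq2 gave an adjusted p to 54 gFLM distal regions and called 12 of them (22.2%), 10 of them passing ones, where 7.14% of all 994 regions with an adjusted p were called. In iFLMbeta it called 2 of 35 (5.71%), where 2.9% of all 690 were called. The 2 iFLMbeta calls of edgeR became 1 without the first GFP library and 0 without the second or without either control library. In iFLMdelta edgeR called 0 of 302, where 0% of all 4607 were called, with 0 higher at an unadjusted p of 0.05 or less, and DESeq2 called 0, with 1 at an unadjusted p of 0.05 or less. The regions were chosen by the authors on these same libraries, so these p-values are descriptions of how well GFP and control counts are set apart.

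Regions that passed in iFLMbeta but not in gFLM, the second SPT region and that of TOE1 among them, had at most 49 reads in a GFP library. SQP1 encodes a squalene epoxidase-like enzyme, and its iFLMbeta region held 24 and 26 GFP reads, against 9 and 3 control reads, at 0.72 ± 0.35 (SD, n = 2). IRX12 encodes a laccase of lignin formation, and its region (chromosome 2, 15941314 to 15941550) held 29 and 26 GFP reads, against 9 and 4 control reads, at 0.69 ± 0.06 (SD, n = 2). In gFLM both pairs had an overlapping region with larger ratios, at 1.47 ± 0.53 and 2.02 ± 1.90 (SD, n = 3), that failed on replicate 2 (q = 0.135 and 0.113). The highest ratio of any iFLMbeta distal region was at AT5G44350/AT5G44360, with 27 and 27 GFP reads against 6 and 0 control reads and 2.09 ± 1.32 (SD, n = 2). That rank rests on a control with 0 reads and on the 1 read added, and the edgeR log2 fold change there was 2.02, against 2.33 at DPA4 and 2.25 at SMZ/TON1A in the same construct. No gFLM region overlapped that one, nor the one at IP5PII/APRR2, which stood at 0.52 ± 0.18 (SD, n = 2). Others flank HSP81-2, a cytosolic HSP90 chaperone gene (0.80 ± 0.40), XYL1, an alpha-xylosidase gene of the cell wall (0.84), and ENP, a gene of cotyledon formation (1.23 ± 1.40; SD, n = 2). Their gFLM counterparts stood at 0.84, 1.18 and 0.38, and each failed q of 0.05 in at least 1 replicate.

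In gFLM 2 regions passed and did not pass in iFLMbeta. The region at AT5G28491/AT5G28495 held 65, 15 and 16 GFP reads in gFLM, against 3, 0 and 11 control reads, at 1.83 ± 0.97 (SD, n = 3). In iFLMbeta it held 27 and 22 GFP reads, against 19 and 4 control reads, at 0.03 ± 0.55 (SD, n = 2). The region at AT1G60150/AT1G60160 held 69, 14 and 23 GFP reads in gFLM, against 13, 0 and 18 control reads, and no iFLMbeta region overlapped it. At AT5G28491/AT5G28495 the iFLMbeta ratios lay on either side of 0 (-0.36 and 0.42), and the lowest gFLM ratio was 0.83.

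iFLMdelta had 3 passing distal regions. RDR2 encodes an RNA polymerase of small-RNA production and CRF1 a cytokinin response factor. The region between their ends (chromosome 4, 6789342 to 6789584) is 5022 bp from the nearer gene of the deposited annotation, the farthest of all passing regions. RefSeq lists 3 noncoding RNA genes between RDR2 and CRF1, and their distance from the region was not measured. It held 33 and 13 GFP reads, against 7 and 3 control reads, at 1.03 ± 0.36 (SD, n = 2). The IRX12/AT2G38090 pair had an iFLMdelta region (chromosome 2, 15942538 to 15942713) with 20 and 16 GFP reads, against 3 and 4 control reads, at 1.16 ± 0.12 (SD, n = 2). It does not overlap the iFLMbeta region of that pair but lies 987 bp from it. The last, at AT5G33252/AT5G33253, held 31 and 27 GFP reads, against 6 and 14 control reads, at 0.63 ± 0.35 (SD, n = 2). An overlapping iFLMbeta region there held 3 and 2 GFP reads, against 1 and 2 control reads, and did not pass, at -0.81 ± 1.37 (SD, n = 2). With the iFLMdelta control columns crossed, the SDs over these 3 regions became 0.69, 0.94 and 1.57.

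The other 7 of the 10 best ranked iFLMdelta distal regions missed the threshold in 1 replicate. They include EMS1/ML4, beside the receptor kinase gene of anther cell fate, with 8 and 14 GFP reads against 8 and 0 control reads. STRS1/AT1G31990, beside an RNA helicase gene, had 17 and 12 GFP reads, against 0 and 7 control reads. MIR396b/SOS2, between a microRNA gene and a salt-tolerance kinase gene, had 22 and 12 GFP reads, against 1 and 14 control reads. Replicates of each were far apart, with log2 ratios of -1.31 and 3.39, 2.86 and 0.18, and 2.21 and -0.73. Both replicates were high at AT4G06547/AT4G06548 (2.60 and 2.29), where the GFP libraries held 14 and 6 reads and the controls 0 and 0, and q there was 0.0228 and 0.0679. AT3G43830/AT3G43833, AT1G44224/hemb2 and ZW2/ZF14 stood at 0.20 ± 1.30, 1.08 ± 2.72 and 0.94 ± 1.22 (SD, n = 2).

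**Figure D2:**
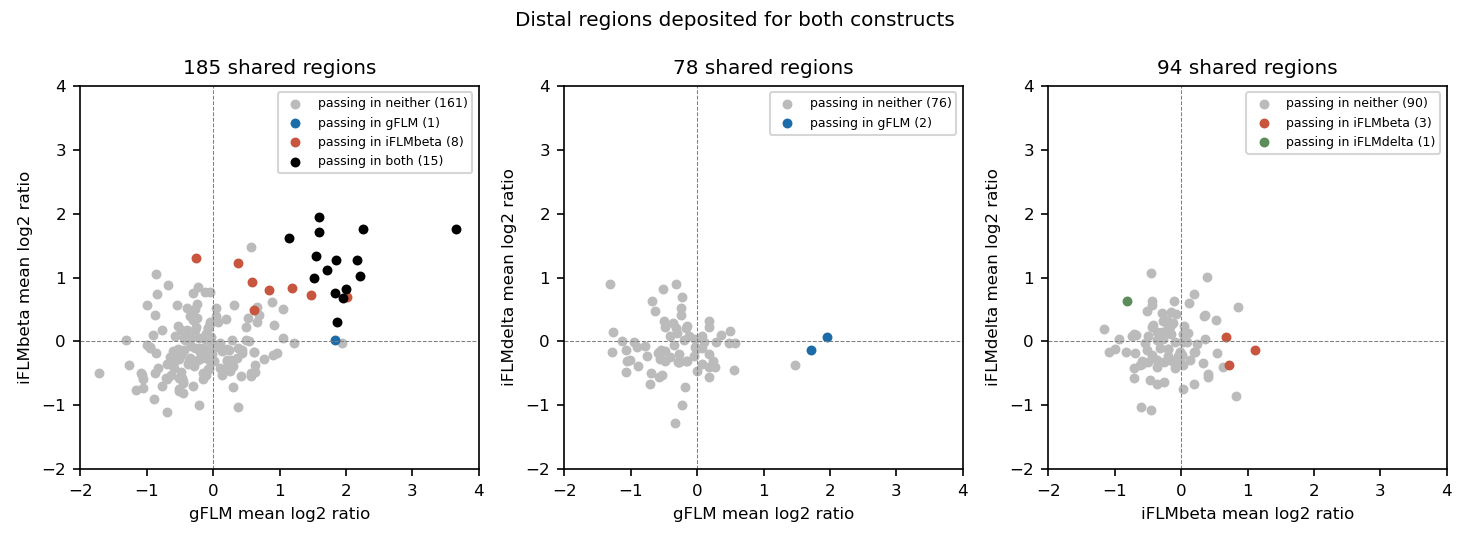
Mean log2 ratio at regions deposited for both constructs of a pair and distal in at least 1 of them (1 point per region), gFLM against iFLMbeta (185 regions), gFLM against iFLMdelta (78) and iFLMbeta against iFLMdelta (94). Colour marks where a region passed. The 15 regions that passed in gFLM and iFLMbeta lie to the upper right, and in the panels with iFLMdelta every passing gFLM or iFLMbeta region lies near or below 0 on the iFLMdelta axis.

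The constructs were compared at distal regions present in both tables, with 1 bp of overlap or more. Of the 17 passing gFLM regions 15 overlapped a passing iFLMbeta region (88.2%), and these were 60% of the 25 passing iFLMbeta regions. Of all 1082 gFLM distal regions 182 overlapped any iFLMbeta region (16.8%) and 23 a passing one, and of all 1022 iFLMbeta distal regions 184 overlapped any gFLM region (18.0%) and 16 a passing one. The centres of the 15 lay a median of 16 bp apart and at most 73.5 bp. The mean log2 ratio was higher in gFLM at 12 of the 15, with a median difference of 0.59, and it was higher in iFLMbeta at SMZ/TON1A, STN7/RAV2 and DPA4/AT5G06260. All 15 were chosen for passing in both. By edgeR's interaction term, 0 of 145 tested shared distal regions differed between gFLM and iFLMbeta, where 0% of all 1954 tested regions were called, with 3 at an unadjusted p of 0.05 or less. DESeq2 called 0, with 2 at that unadjusted p. Among the 15 the largest difference was at LEJ2/AP2, with 3.65 in gFLM and 1.76 in iFLMbeta (unadjusted p = 0.0168, adjusted p = 0.999 by edgeR).

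No passing distal region of iFLMdelta, of 3, overlapped a passing one of the other constructs. Among all 877 iFLMdelta distal regions, 76 (8.67%) overlapped any gFLM region and 2 a passing one. For iFLMbeta the counts were 93 (10.6%) and 2. Of the 17 gFLM regions 2 had any iFLMdelta counterpart, HB40/AT4G36750 and AFP3/AT3G29577, and of the 25 iFLMbeta regions 3 had one, these and SQP1/AT5G24155. Of all distal regions, 75 of 1082 in gFLM (6.93%) and 92 of 1022 in iFLMbeta overlapped an iFLMdelta region. HB40 had 20 and 12 GFP reads in iFLMdelta, against 9 and 6 control reads, at 0.07 ± 0.43 (SD, n = 2). AFP3 had 20 and 11 GFP reads there, against 16 and 4 control reads, at -0.13 ± 1.24 (SD, n = 2), and SQP1 stood at -0.37 ± 0.82 (SD, n = 2). All 3 iFLMdelta means lie below those of the overlapping gFLM and iFLMbeta regions, but the 3 were picked for passing in gFLM or iFLMbeta. The regions overlap only in part. At HB40 the iFLMdelta centre lies 178.5 bp from the gFLM one and 182 bp from the iFLMbeta one. By edgeR's interaction term 0 of 51 shared distal regions differed between gFLM and iFLMdelta and 0 of 67 between iFLMbeta and iFLMdelta, where 0% of all 548 tested regions were called in each, with 1 and 0 at an unadjusted p of 0.05 or less. DESeq2 called 0 in both, with 3 and 0. The other passing regions had no overlapping region in the iFLMdelta table, so no ratio could be set beside them.

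The compared regions are distal in at least 1 table, and 178, 73 and 90 of the 185, 78 and 94 are distal in both. Across them the mean ratios had a Spearman rho of 0.41 between gFLM and iFLMbeta (185 regions), 0.005 between gFLM and iFLMdelta (78) and 0.004 between iFLMbeta and iFLMdelta (94). Over all shared regions, distal or not, rho was 0.35, -0.02 and -0.001 for the same pairs (2330, 730 and 733 regions). Regions within a pair share their libraries, and these values are descriptions. In all, 20 distal regions were deposited for every construct. HB40/AT4G36750, AFP3/AT3G29577 and SQP1/AT5G24155 were the 3 of them that passed anywhere, and the medians of the 20 were -0.08 in gFLM, -0.19 in iFLMbeta and -0.01 in iFLMdelta.

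**Figure D3:**
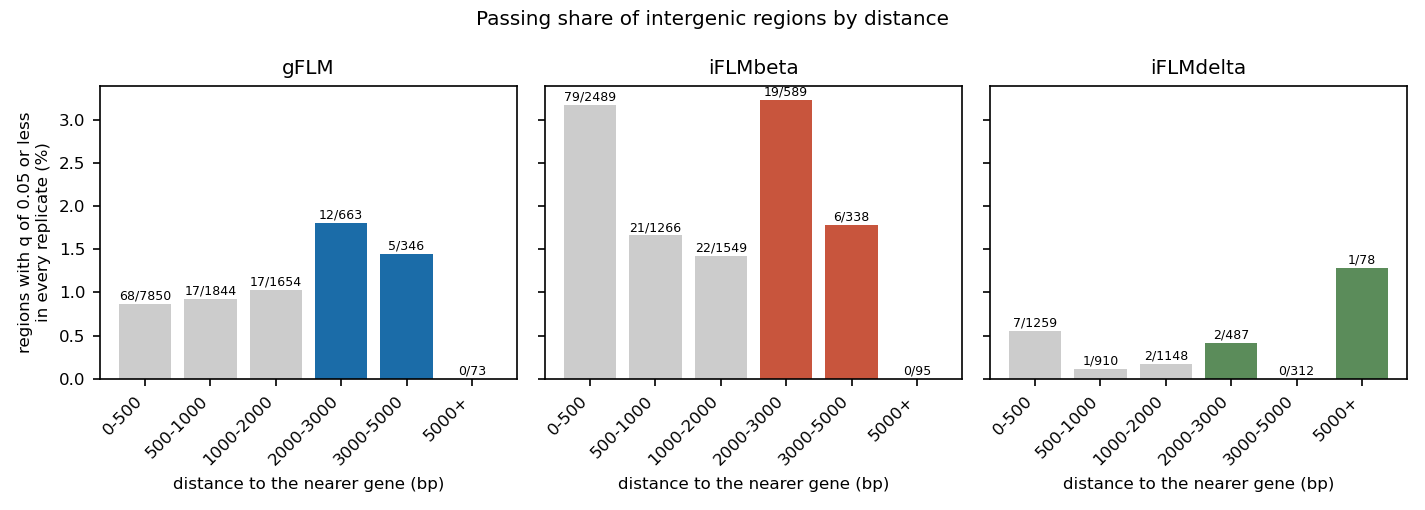
Share of intergenic regions that passed (y axis, %) by distance to the nearer gene (x axis, bp), per construct. Coloured bars are distal regions, grey bars nearer intergenic ones, and each bar carries the numbers of passing and of all regions. In gFLM the bar from 2000 to 3000 bp, at 1.81%, is above the 3 nearer ones, and past 5000 bp gFLM and iFLMbeta have 0 passing regions.

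The share of passing regions did not fall steadily with distance. In gFLM it was 0.866% under 500 bp, 0.922% from 500 to 1000 bp, 1.03% from 1000 to 2000 bp, 1.81% from 2000 to 3000 bp (12 of 663) and 1.45% from 3000 to 5000 bp (5 of 346). In iFLMbeta it was 3.17% under 500 bp, 1.66% and 1.42% in the next bins, 3.23% from 2000 to 3000 bp (19 of 589) and 1.78% from 3000 to 5000 bp (6 of 338). Past 5000 bp it was 0 of 73 in gFLM and 0 of 95 in iFLMbeta, which allows shares of up to 4.11% and 3.16% by counting error alone. In iFLMdelta the 3 passing regions were spread, with 2 of 487 from 2000 to 3000 bp and 1 of 78 past 5000 bp. Over all distal regions the gFLM share of 1.57% compares with 0.899% of nearer intergenic regions and 0.537% of regions centred in a gene. The iFLMbeta share of 2.45% compares with 2.3% and 0.737%, and the iFLMdelta share of 0.342% with 0.301% and 0.482%. No test was made of these shares, since neighbouring regions share libraries.

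The passing regions nearest the distance limit are given as a description. In gFLM the passing region just inside 2000 bp was that of NCED3 (2049 bp), at 2.01, and the one just outside was CHAL/AT2G30380 (1792 bp), at 1.92 ± 0.52 (SD, n = 3). CHAL encodes a signal peptide of stomatal patterning. In iFLMbeta they were SQP1 (2004 bp), at 0.72, and the same CHAL pair (1776 bp), at 0.79 ± 0.52 (SD, n = 2). In iFLMdelta they were IRX12/AT2G38090 (2085 bp), at 1.16, and AT5G32470/AT5G32473 (1467 bp), at 0.94 ± 0.30 (SD, n = 2).

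**Figure D4:**
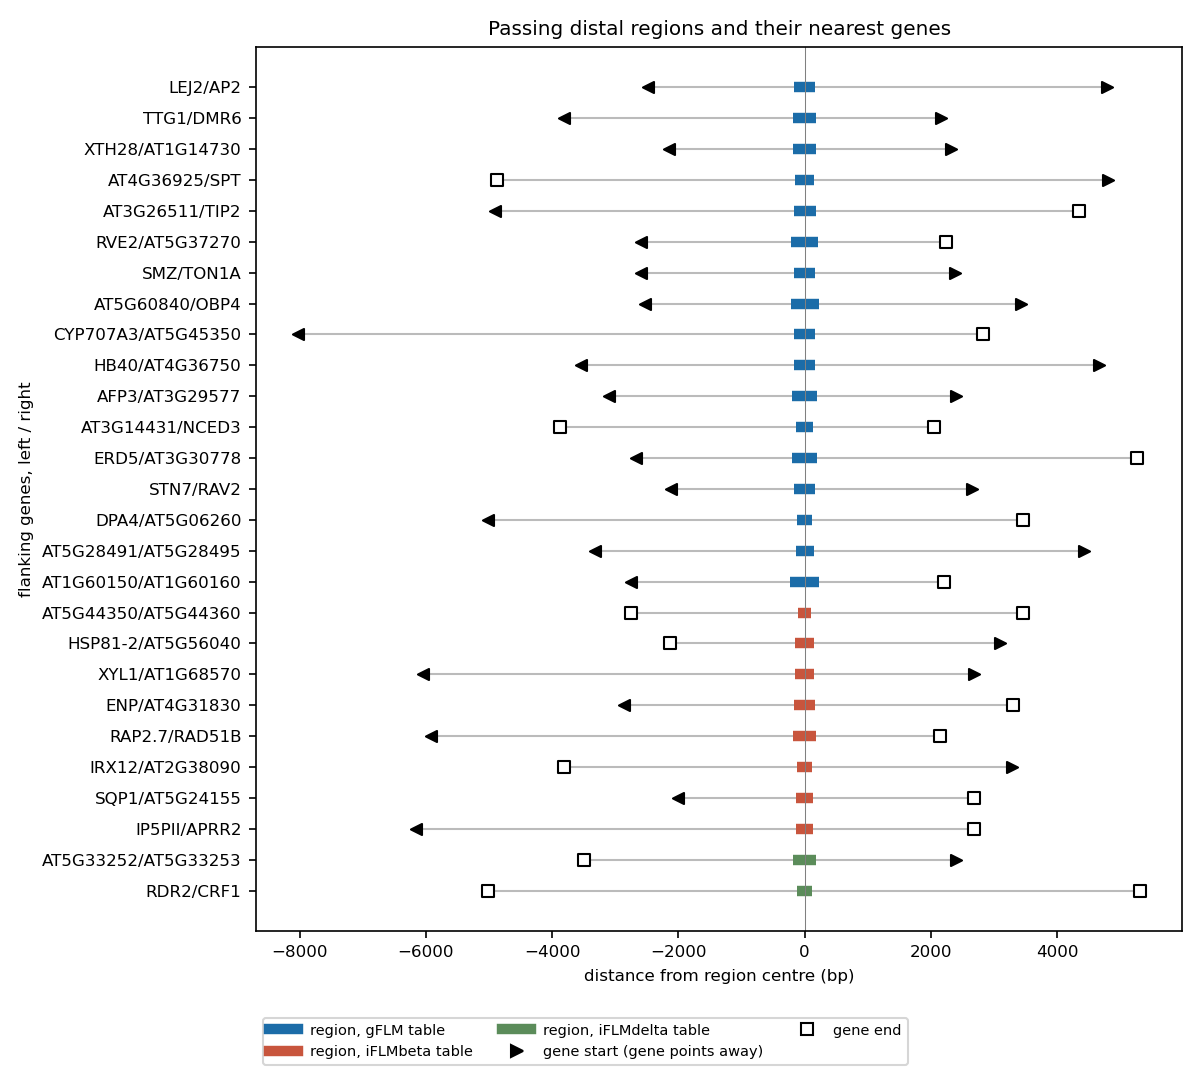
Position of passing distal regions (thick bars, to scale) between its nearest genes, as distance from the region's centre in bp (x axis). Rows are gene pairs, and each pair shown is drawn once (1 iFLMbeta pair is left out), from the first table of gFLM, iFLMbeta and iFLMdelta in which it passed. Filled triangles are gene starts and point in the direction of transcription, and open squares are gene ends. A gene start faces the region in all but AT3G14431/NCED3, AT5G44350/AT5G44360 and RDR2/CRF1.

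Distal regions mostly faced a gene start, whether they passed or not. Among the 17 gFLM regions 9 lay between diverging genes, 7 between genes in tandem and 1 between converging genes. Over all 1082 gFLM distal regions the shares were 42.5%, 48.0% and 9.52%, against 33.5%, 54.7% and 11.8% for nearer intergenic regions. The nearest facing start was a median of 2636 bp away in gFLM, over the 16 regions with one, and 2680 bp in iFLMbeta, over 23 of 25. The 25 iFLMbeta regions were 10 diverging, 13 tandem and 2 converging, where the shares over all iFLMbeta distal regions were 40.9%, 49.5% and 9.59%. The 3 iFLMdelta regions were 2 tandem and 1 converging, where the shares over all iFLMdelta distal regions were 32.5% diverging, 53.8% tandem and 13.7% converging.

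What lay between and beside the genes is set next to nearer intergenic regions as a description. Distal regions can lie only in long gaps between genes, while nearer ones can also lie in short gaps. The shares below were not matched for gap length. RefSeq lists a further gene between the flanking genes for 46.7% of gFLM distal regions, 50.5% in iFLMbeta and 48.6% in iFLMdelta. For nearer intergenic regions the shares were 21.6%, 26.6% and 26.9%. Among passing distal regions with both genes matched it was 3 of 14 in gFLM (LEJ2/AP2, RVE2 and AFP3), 4 of 22 in iFLMbeta and 1 of 3 in iFLMdelta. A flanking pseudogene was found at 22.3%, 29.5% and 40.6% of distal regions in gFLM, iFLMbeta and iFLMdelta, and at 3 of 17, 1 of 25 and 1 of 3 passing ones. For nearer intergenic regions the shares with a pseudogene were 9.96%, 19.2% and 31.7%.

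Passing distal regions were longer than distal regions in general and held more reads. The median length was 344 bp for the 17 gFLM regions and 176 bp for all gFLM distal regions. It was 288 bp for the 25 iFLMbeta regions and 159.5 bp for all, and 243 bp for the 3 iFLMdelta regions and 161 bp for all. The median GFP reads summed over libraries were 205 for passing gFLM regions and 21 for all gFLM distal regions, and 78 and 20 in iFLMbeta. Length and reads both bear on the q-value, so these are descriptions of the regions that the threshold picks.

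Most distal regions did not pass. The division by library totals tends to bring the middle of the ratios near 0, so a median near 0 does not show that reads were not enriched. The median log2 ratio over all distal regions was -0.33 for gFLM, -0.16 for iFLMbeta and -0.05 for iFLMdelta, against -0.32, -0.15 and -0.03 over all regions of each table. In gFLM the medians per replicate were 0.15, -1.12 and 0.16, so the low value is that of replicate 2. Its control library had the fewest reads, so the 1 read added weighs most there. The replicate 2 median over all gFLM regions was -1.12 too. Over passing distal regions the median was 1.83 for gFLM, 1.02 for iFLMbeta and 1.03 for iFLMdelta, against 1.68, 1.01 and 1.03 over all passing regions. Every ratio was above 0 at 5.73% of gFLM distal regions, 15.5% in iFLMbeta and 17.6% in iFLMdelta, where the shares over all regions were 4.85%, 12.9% and 17.9%. That takes 3 ratios in gFLM and 2 in the splice variants, so the gFLM share cannot be set against theirs. A q of 0.05 or less was reached in exactly 1 replicate at 103 of 1082 gFLM, 102 of 1022 iFLMbeta and 132 of 877 iFLMdelta distal regions. Over all regions it was so at 2191 of 19879 in gFLM, 2024 of 13791 in iFLMbeta and 1988 of 10006 in iFLMdelta. With the q limit set at 0.01, 12 gFLM, 12 iFLMbeta and 0 iFLMdelta distal regions were left, where 0.498%, 0.74% and 0% of all regions passed.

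Many reads, with GFP and control reads counted together, did not by themselves make a region pass. AT2G14790/AT2G14793 had 144, 15 and 15 GFP reads in gFLM, against 120, 5 and 37 control reads, at -0.88 ± 0.16 (SD, n = 3). AT1G78095/AUF1 had 155, 3 and 5 GFP reads, against 123, 0 and 27 control reads, at -0.98 ± 0.89 (SD, n = 3). By GFP and control reads together, these were the distal regions with the most reads in gFLM after LEJ2/AP2. That order favours regions with many control reads, and at both the control reads were of the same order as the GFP reads. Passing regions such as AT3G26511/TIP2 held more GFP reads (199, 38 and 37). In iFLMdelta the distal region with the most reads, TRM33/ROPGEF2, held 81 and 24 GFP reads, against 27 and 36 control reads, and its replicates went opposite ways.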

How the data were processed

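Each construct has 1 region table from the authors. It holds raw read counts per library and region as deposited, q-values per replicate (Benjamini-Hochberg, given by the authors as p-values adjusted for multiple tests), the log2 of their rank product with its rank by the authors, region size, overlapping genes, and the nearest gene on each side with its distance, per the file headers. Coordinates are those of TAIR10, the build in the submitters' processing notes; aligner, peak caller and duplicate handling were not given in the sources used. Libraries were amplified by PCR without molecular identifiers, per the labels' protocols, so limits cover counting error only. Reads in deposited regions are the only totals used here.

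Distal regions had no overlapping gene and both distances of 2000 bp or more; 14 organelle regions were left out. GFP was compared with control per table by edgeR 4.0.16 in R 4.3.3 (quasi-likelihood test, TMM, filterByExpr, Benjamini-Hochberg over all tested regions, threshold 0.05), with DESeq2 1.42.0 as an alternative. Enrichment was compared between constructs by an interaction term at regions shared by best mutual overlap. Summary tables and plots used Python 3.11.15. Ratios used a pseudocount of 1 read, and GFP column 1 was set against control column 1, and so on. In iFLMbeta and iFLMdelta columns name the group but no single library, so their SDs rest on column numbers (the median SD of passing iFLMbeta distal regions was 0.39, and 0.43 with the controls crossed); 0 columns had no sample or group. In gFLM the numbers were taken to pair the libraries, as the labels and headers number both kinds by replicate. Deviations of same-numbered GFP and control libraries correlated at 0.52, 0.24 and 0.12 over 5216 regions. Differently numbered libraries were not compared, so these values do not show the pairing. Nothing in the labels ties replicates to separate plants, so p-values reflect only the spread among the libraries, which could be technical. On simulated counts with 200 regions raised by a fold of 8, edgeR recovered 100% in gFLM, 90% in iFLMbeta and 99.5% in iFLMdelta. It made 5, 1 and 3 false calls. The raised regions were drawn from those above a floor of control reads, and the spread between libraries was fixed. Smaller folds and lower counts, as at most passing distal regions, were not simulated, so these values do not give the recovery there.

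Regions were named by flanking genes for the 10 best ranked distal regions per construct, those called, passing ones beside a listed gene, the 3 farthest from genes, those at the distance limit and those passing in 2 constructs; the other passing regions but 1 of iFLMbeta, which is counted but not reported here, and those with most reads or called under the block alone, were named after their values were seen. The members and lists were chosen with earlier results of these data known. Of 103 list entries 97 matched a gene of the tables. Symbols and pseudogene status came from the RefSeq table of TAIR10.1, used for names and neighbour order only. Sequences and motifs are not used here. Alternatives were the replicate block, total-read scaling, no filter, DESeq2, other pseudocounts, distances and q thresholds, and each library left out.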

Additional observations from a re-analysis of the deposited data

How the results depend on the processing

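The count of distal regions called by edgeR in gFLM was 1; it became 12 with DESeq2, 18 with the replicate block, 0 with no filter on low counts, 2 when scaled by total reads, 6 at 1000 bp or more, 0 at 3000 bp or more, and 0 to 3 with 1 library left out. In iFLMbeta the 2 calls became 0 with the column numbers as a replicate block, 0 with that block crossed, 0 without the filter, 1 with total reads, 6 at 1000 bp, 0 at 3000 bp, and 0 to 1 with 1 library left out. iFLMdelta had 0 throughout, the replicate block and the crossed block included (its same-numbered columns correlated at -0.20). Passing counts at 1000 and 3000 bp were 34 and 5 in gFLM, 47 and 6 in iFLMbeta, and 5 and 1 in iFLMdelta; at q of 0.01 they were 12 in iFLMbeta and 0 in iFLMdelta. With 1 replicate left out they were 18 to 32 in gFLM (32 without replicate 2), 53 to 99 in iFLMbeta and 34 to 104 in iFLMdelta, since fewer q-values then had to be low. These counts are given without the shares over all regions. A pseudocount of 5 gave medians over passing regions of 1.09, 0.59 and 0.50 in gFLM, iFLMbeta and iFLMdelta, and over all distal regions of -0.60 in iFLMbeta and -0.30 in iFLMdelta. Leaving out 1 replicate moved the median of all distal regions to between -0.52 and 0.11 in gFLM, -0.20 and 0.048 in iFLMbeta, and 0.067 and 0.16 in iFLMdelta. TMM scaling raised the median of all gFLM regions by 0.15. The iFLMbeta call at LEJ2/AP2 also ended with the replicate block (edgeR adjusted p = 0.173), the crossed block (0.614) and no filter (0.242), and that at TTG1/DMR6 likewise (0.247, 0.685 and 0.314). The sign reversed, with no call either way, at AT5G33252/AT5G33253 without the first control (edgeR adjusted p = 0.999; 0.986 to 1.00 with 1 library left out), at AT3G43830/AT3G43833 without the second GFP library (0.999) or control (0.993), and at MIR396b/SOS2 without the first control (0.999; 0.986 to 1.00 with 1 library left out) and by DESeq2 (1.00). Causes were not tested. The replicate block changed no iFLMdelta count, and the interaction term was not fitted with a block.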
